A study of Mus musculus with 12 samples.

Results

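The oligosaccharyltransferase of the endoplasmic reticulum was followed through 10 of its subunit genes, Krtcap2, Ddost, Rpn1, Rpn2, Stt3a, Stt3b, Dad1, Ostc, Magt1 and Tusc3, out of 26214 gene symbols in a table of raw counts. All 10 were present in the table, and 9 passed the filter on low counts, Tusc3 being the member that did not. The cells were mLTC-1, a mouse Leydig cell line, Leydig cells being the androgen-producing cell type of the testis. In 6 libraries the cells had been given MSNBA, a small molecule, at 100 µM for 24 h, and in 6 control libraries they had received DMSO alone. The series names the fructose transporter Glut5 as the target that MSNBA blocks. No transgene or mutation was named, and whether the replicates were separate cultures is not given, so that the spread between libraries may be technical. The members were chosen by symbol, as subunits of the enzyme, and Krtcap2 was put forward with its level in MSNBA against control libraries known. Those values are therefore given as a description. Where the number of members among the called genes is stated, it is a count and no evidence about them.

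Oligosaccharyltransferase moves a preassembled oligosaccharide from a dolichol lipid onto asparagine residues of proteins entering the endoplasmic reticulum. Mammalian cells build the enzyme around either of a pair of catalytic proteins, STT3A or STT3B. The STT3A form sits at the translocon and glycosylates chains as they emerge, with KRTCAP2 (also called KCP2) and OSTC (also called DC2) as its particular subunits. The STT3B form takes up sites that were missed, with the help of the oxidoreductase subunits MAGT1 or TUSC3. RPN1, RPN2, DDOST and DAD1 are shared by both forms. In Leydig cells the luteinizing hormone receptor is one of the proteins that carry N-glycans.

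Total counts ran from 94179 to 657251 in MSNBA libraries and from 59113 to 234225 in controls, and the geometric mean was 2.14-fold higher in MSNBA. Members held 253 to 1842 counts per library in MSNBA and 111 to 548 in controls, so that the control values rest on few molecules. Summed over full library totals, 7 Leydig markers (Star, Cyp11a1, Cyp17a1, Hsd3b1, Insl3, Lhcgr and Nr5a1) measured 7569 to 9388 CPM in MSNBA (counts scaled to a common library size) and 7490 to 10905 in controls. The sum of 13 markers of macrophages, Sertoli, endothelial, stromal and germ cells measured 40.9 to 117 CPM in MSNBA and 51.9 to 152 in controls. Among these, Pdgfra had 20 counts in MSNBA and 14 in controls, Col1a1 17 and 7, Sox9 13 and 3, and Prm1 13 and 13. In the same order, Amh had 0 and 1, Adgre1 3 and 0, and Ddx4 1 and 0, and the remaining markers had at most 7 in a group. The part of such cells in the member values was not tested. In the table the columns of libraries 2, 5, 8 and 11 (controls 2 and 4, MSNBA 3 and 5 by the labels) stand together as the middle of 3 sets of 4, the first of which holds controls alone and the last MSNBA alone. The labels do not say what the sets are. Had the middle set been treated differently from both others, each mean of 6 libraries would mix conditions, which cannot be told apart here. Some values are therefore also given for the middle set and the outer sets apart.

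Over all 2614 tested genes, edgeR's quasi-likelihood test called 0 genes higher and 2 lower in MSNBA at an adjusted p of 0.05 (Benjamini-Hochberg), which is 0.0765% of genes. At an unadjusted p under 0.05 there were 109 higher and 125 lower by edgeR (8.95% of genes), while limma-voom called 0 of the same 2614 genes, with 259 at that unadjusted level. DESeq2, which tested 19572 genes, also called 0, with 394 at that level. None of the 9 tested members was among the 2 called genes. Of the 9 members, 8 had a log2 fold change above 0, where 48.5% of all tested genes did. Their median log2 fold change was 0.21, against -0.0082 over all tested genes. Since this contrast entered the choice of the members, nothing is read from these counts.

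Krtcap2, a small membrane subunit of the STT3A form, lies on chromosome 3 from 89245904 to 89249729 of the GRCm38.p6 assembly (mm10), on the plus strand. Its normalized CPM (scaled by TMM over tested genes only) had a lowest, median and highest value of 363, 480 and 544 in MSNBA libraries, against 234, 295 and 354 in controls. All 6 MSNBA libraries lay above all 6 controls, a pattern that 6 tested genes (0.23%) showed in that direction. The lowest MSNBA value, in MSNBA 2, and the highest control value, in control 1, were close to each other. Means were 459 ± 64.4 and 293 ± 44.7 CPM (SD, n = 6 each), a log2 fold change of 0.63 (SE 0.16). Counts per library ran from 30 to 263 in MSNBA and from 15 to 67 in controls. The spread of Krtcap2 within groups was 0.85 times that of pure counting error, below the 1.33 of the median tested gene. More Krtcap2 RNA per cell and more cells with it cannot be told apart in bulk RNA.

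Since all MSNBA values of Krtcap2 lay above all controls, any subset of the libraries separates as well, and nothing is read from that. Only the middle column set holds both groups, and the outer sets are compared with each other. In the outer sets Krtcap2 measured 363 to 544 CPM in 4 MSNBA libraries and 234 to 354 in 4 controls, with a log2 fold change of 0.55 (SE 0.19). In the middle set it measured 479 and 482 CPM in MSNBA 3 and 5 and 281 and 257 in controls 2 and 4, with a log2 fold change of 0.85 (SE 0.28). With log2 library total in the model the value was 0.52 (SE 0.18), and after thinning all libraries to 59113 counts it was 0.70 (SE 0.22). Without the low-count filter it was 0.76 (SE 0.18), in a fit that moved the median of the 2614 genes to 0.14. Trim46, a gene on the opposite strand, overlaps the start of Krtcap2 by 344 bases in the GENCODE M21 annotation. It had 19 counts over the MSNBA libraries and 12 over the controls, against 611 and 166 for Krtcap2, and whether the counting used strand is not given in the sources used here.

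**Figure D1:**
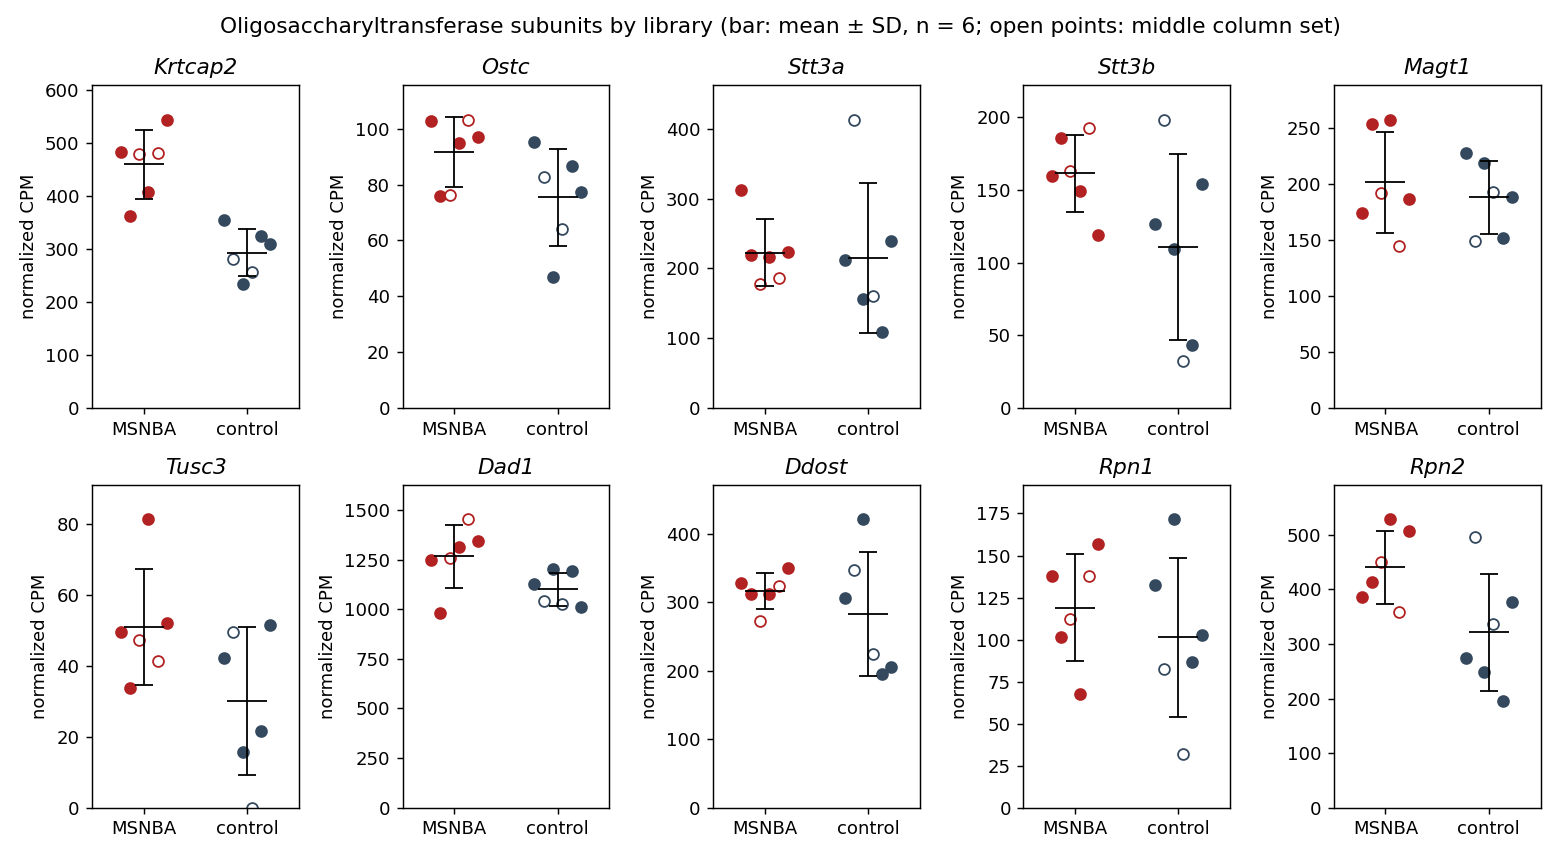
Normalized CPM of each of the 10 subunit genes (vertical axes, from 0) in the 6 MSNBA and 6 control libraries, with each library as a point, the mean as a black line and the SD as error bars. Open points are the 4 libraries of the middle column set. Krtcap2 is the gene whose groups do not overlap, with MSNBA from 363 and controls up to 354 CPM.

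Ostc, the other subunit particular to the STT3A form, was sparse, with 121 counts in all MSNBA libraries and 43 in all controls. Its lowest, median and highest values were 75.9, 95.9 and 103 CPM in MSNBA, against 46.8, 79.9 and 95.2 CPM in controls. The groups overlapped, with 3 MSNBA libraries above every control. The log2 fold change was 0.23 (SE 0.25). Stt3a, the catalytic subunit of this form, had values of 178, 218 and 312 CPM in MSNBA and 108, 186 and 414 CPM in controls, in the same order. Its highest value of all came from a control, control 2, and the control range enclosed the MSNBA range. Means were 223 ± 47.7 CPM in MSNBA and 215 ± 108 CPM in controls (SD, n = 6 each), and the log2 fold change was 0.08 (SE 0.21).

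The sign of Stt3a depended on single libraries. Its log2 fold change was -0.12 without MSNBA 1, -0.0077 without control 5 and 0.28 without control 2. In the outer column sets it was 0.40 (SE 0.23), with 217 to 312 CPM in MSNBA and 108 to 240 CPM in controls. In the middle set it was -0.63 (SE 0.37), with 178 and 186 CPM in MSNBA 3 and 5 against 414 and 160 CPM in controls 2 and 4. With library total in the model it was -0.14 (SE 0.24), and after thinning -0.18 (SE 0.30). The within-group spread of Stt3a was 3.33 times counting error, more than in 89.9% of tested genes. The ratio of Krtcap2 to Stt3a counts, not scaled by length, was 1.55 to 2.69 in MSNBA and 0.68 to 3.00 in controls, so that the groups overlapped. Whether the column sets differ was not tested.

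On the STT3B side, the catalytic gene Stt3b had a lowest, median and highest value of 119, 161 and 193 CPM in MSNBA, against 32.1, 118 and 199 CPM in controls. Control 2 was the highest of all, and 3 controls lay below every MSNBA library. Controls 4 and 5 held 2 counts each. The log2 fold change was 0.44 (SE 0.24), and it was 0.30 without control 4. Magt1, a thioredoxin-like subunit that also acts in magnesium transport, had values of 145, 189 and 257 CPM in MSNBA and 149, 190 and 227 CPM in controls. The MSNBA range enclosed the control range, and the log2 fold change was -0.02 (SE 0.19). The sign of Magt1 turned in 11 of 24 alternatives. Tusc3, the paralogue that can take the place of Magt1, had 4 to 27 counts per MSNBA library and 0 to 8 per control, too few for the fit. Its pooled level was 48.7 CPM in MSNBA and 35.3 CPM in controls, a ratio of 1.38 with an exact 95% interval from 0.817 to 2.45 that covers counting error only.

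Among the shared subunits, Rpn2, one of the ribophorins, had values of 358, 432 and 529 CPM in MSNBA and 195, 306 and 496 CPM in controls (lowest, median, highest). The groups overlapped through controls 2 and 6, while 4 controls lay below every MSNBA library. Means were 440 ± 67.6 CPM in MSNBA and 322 ± 107 CPM in controls (SD, n = 6 each), a log2 fold change of 0.42 (SE 0.17). It was 0.64 (SE 0.20) in the outer column sets, and 0.0047 (SE 0.28) in the middle set, where controls 2 and 4 had 496 and 337 CPM and MSNBA 3 and 5 had 450 and 358 CPM. Rpn2 overlaps Mroh8 on the opposite strand by 533 bases, and Mroh8 had 3 counts in all 12 libraries.

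Dad1, a small subunit first named as a defender against cell death, was the deepest measured member, with 1631 counts in MSNBA and 590 in controls. Its values were 979, 1286 and 1453 CPM in MSNBA and 1011, 1084 and 1201 CPM in controls. Of the MSNBA libraries 5 lay above every control, while MSNBA 2 lay below every control. Means were 1266 ± 159 CPM in MSNBA and 1100 ± 84.7 CPM in controls (SD, n = 6 each), with a log2 fold change of 0.21 (SE 0.11). It was 0.12 (SE 0.14) in the outer column sets and 0.40 (SE 0.19) in the middle set.

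Ddost, a non-catalytic subunit named after the whole enzyme, had values of 272, 318 and 350 CPM in MSNBA, which the controls enclosed with 195, 266 and 421 CPM. Its log2 fold change was 0.15 (SE 0.18), and it was -0.17 after thinning. Rpn1, the other ribophorin, had 67.8, 125 and 157 CPM in MSNBA and 32.1, 94.8 and 172 CPM in controls, with 2 counts in control 4. The log2 fold change of Rpn1 was 0.21 (SE 0.25). It was 0.011 (SE 0.28) in the outer sets and 1.10 (SE 0.53) in the middle set, where controls 2 and 4 held 5 and 2 counts. Without control 4 it was 0.070.

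As a whole, the 10 members summed to a lowest, median and highest level of 2936, 3400 and 3578 CPM in MSNBA, against 2325, 2770 and 3143 CPM in controls. Of the MSNBA libraries 5 lay above every control, and control 2 was the control that reached into the MSNBA range. Without Krtcap2 the sum was 2574 to 3034 CPM in MSNBA and 2068 to 2862 CPM in controls, with 4 MSNBA libraries above every control. Without Krtcap2 and Dad1 it was 1604 ± 97.2 CPM in MSNBA and 1326 ± 327 CPM in controls (SD, n = 6 each). The values ran from 1487 to 1708 CPM in MSNBA and from 888 to 1820 CPM in controls, with 5 controls below every MSNBA library and control 2 above them all.

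Counts were also expressed as shares within the complex. Pooled shares weigh each library by its depth, and MSNBA 1 gave 1842 of the 4310 member counts of its group. Krtcap2 took 14.2% of the members' counts pooled over MSNBA libraries (611 of 4310, exact 95% interval 13.1 to 15.3%) and 11.1% over controls (166 of 1492, 9.57 to 12.8%). By library the share ran from 11.9 to 15.2% in MSNBA and from 8.29 to 13.5% in controls, so that the groups overlapped. Stt3a took 60.3% of the counts of both catalytic genes in MSNBA (318 of 527, 56.0 to 64.5%) and 64.5% in controls (118 of 183, 57.1 to 71.4%). Without MSNBA 1, an alternative chosen after the data were seen, the MSNBA share was 54.8% (148 of 270, 48.7 to 60.9%). By library it ran from 49.1 to 66.1% in MSNBA and from 58.8 to 83.3% in controls. The genes of the STT3A side (Stt3a, Ostc and Krtcap2) held 67.1% of the counts of both sides in MSNBA (64.7 to 69.4%) and 63.1% in controls (58.8 to 67.3%). Without MSNBA 1 the MSNBA share was 64.7% (61.4 to 67.9%), and by library the shares overlapped, at 58.2 to 70.7% in MSNBA and 56.0 to 70.6% in controls. Tusc3 took 20.6% of Tusc3 and Magt1 counts in MSNBA (16.2 to 25.6%) and 15.1% in controls (9.33 to 22.5%), with libraries from 11.8 to 24.0% in MSNBA and from 0 to 25.0% in controls. These shares are of counts not scaled by transcript length, and their intervals cover counting error only.

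**Figure D2:**
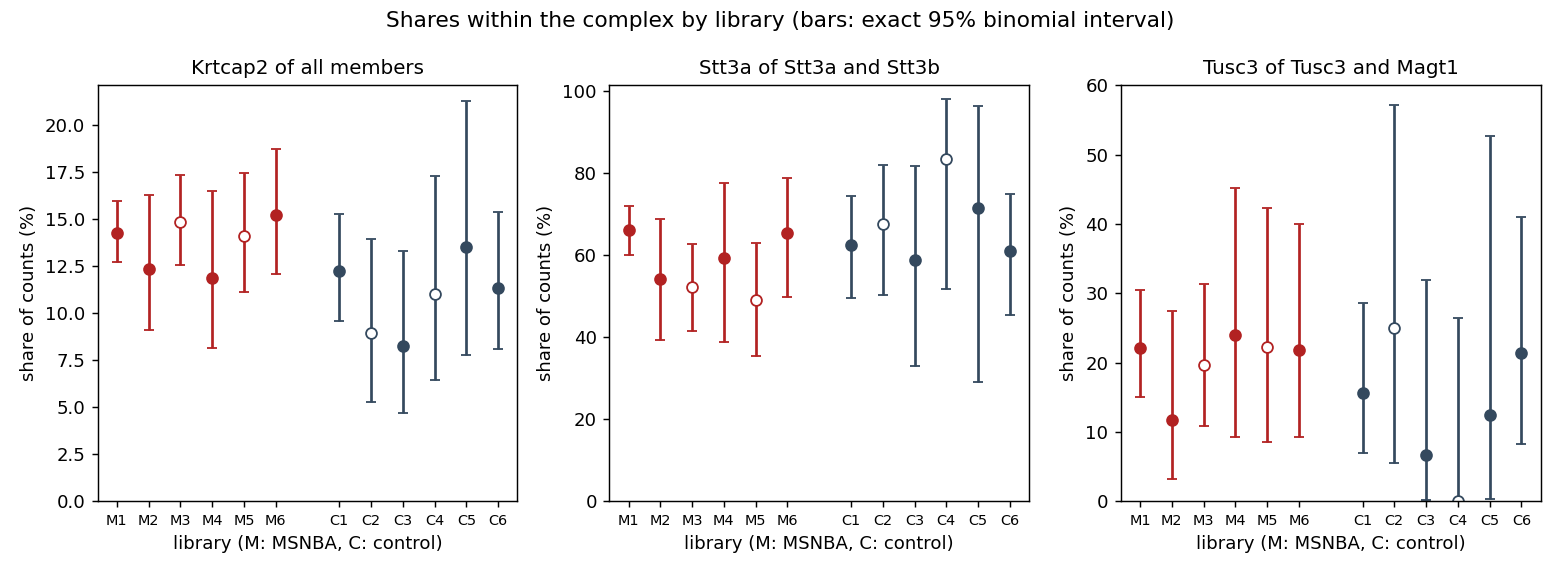
Share of counts in percent (vertical axes) for Krtcap2 among the 10 members, Stt3a among the catalytic genes and Tusc3 among Tusc3 and Magt1, for each MSNBA (M) and control (C) library. Bars are exact 95% binomial intervals of 1 library, and open points are the middle column set. The Krtcap2 shares of 11.9 to 15.2% in MSNBA overlap those of 8.29 to 13.5% in controls.

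Per kilobase of the principal GENCODE M21 transcript, Dad1 had the highest mean level in both groups, 1441 ± 181 CPM per kilobase in MSNBA and 1253 ± 96.5 in controls (SD, n = 6 each). Krtcap2 came next, with 392 ± 54.9 CPM per kilobase in MSNBA and 250 ± 38.1 in controls. Ddost (149 in MSNBA and 134 in controls) and Rpn2 (160 and 117) followed, and did not differ from each other beyond their SD in either group. Ostc stood at 85.9 CPM per kilobase in MSNBA and 70.7 in controls. Below it came Magt1 (48.9 and 45.7), Stt3a (37.9 and 36.6), Stt3b (38.3 and 26.2), Rpn1 (32.7 and 27.9) and Tusc3 (33.7 and 19.9). Among these, the ranges of mean ± SD of neighbours overlapped in MSNBA and in controls. The order depends on the transcript for Dad1: 878 nucleotides were used, and with its transcript of 3491 nucleotides the level is 363 CPM per kilobase in MSNBA and 315 in controls. If the counts come from 1 end of each transcript, which the sources used here do not say, no length scaling is due.

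The variation of members within groups was described by correlations, which counting error can move in either direction in genes as sparse as these. After the group means were taken off, the median Pearson correlation of log2 CPM over the 36 pairs of tested members was 0.073 over 12 libraries, against -0.0025 over all pairs among the 2612 tested genes with a mean of at least 10 counts. Pairs ran from -0.46 to 0.76. The highest pair was Krtcap2 with Ostc (r = 0.76), followed by Rpn2 with Stt3a (0.74) and Stt3a with Stt3b (0.69). The lowest was Krtcap2 with Magt1. These pairs share libraries and depths, and control 2 was the highest control for Rpn2, Stt3a and Stt3b. The spread within groups was 0.85 times counting error for Krtcap2 and 0.36 times for Ostc, and 1.34% of tested genes had a smaller one than Ostc. Neither gene of the highest pair thus varied beyond counting error, and nothing is read from its r, the highest of 36.

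By the same measure, the 5 genes most like Krtcap2 over the 12 libraries were Psmb3, a proteasome subunit gene (r = 0.85), Idh3b, a subunit of isocitrate dehydrogenase (0.83), Atox1, a copper chaperone (0.82), Klhdc10 (0.80) and Lpgat1, an acyltransferase gene (0.80). Ostc was number 11 of 2611 genes in that order, Dad1 number 277, Stt3a number 1304 and Magt1 number 2393. The highest of so many values over 12 libraries can be high without a link between the genes. As Krtcap2 spread only 0.85 times counting error within groups, nothing is read from the order.

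Promoter windows were taken from RefSeq for 8 of the 10 members (250 bases before to 50 after each start, GRCm38.p6), with none for Ostc and Tusc3. A CCAAT box, the letters CCAAT on either strand, was found in 8 of the 10 windows of these 8 members, and in 37.4% of all 32851 windows. Every one of the 8 members had a window with a CCAAT box, a count by member that cannot be set beside the share of windows. The GC box, another short motif that was searched for, gave a similar picture, in 7 of the 10 member windows and 35.7% of all. The YY1, ETS and NRF1 motifs were in 1 member window each, and in 2.75%, 8.86% and 4.6% of all windows. The 32851 windows were not limited to genes tested here. Whether the CCAAT box is particular to the members was therefore not tested. Krtcap2 had a window with 0 CCAAT boxes and a window with 1, which lay 17 bases after the start. These windows overlap, at 89246188 to 89246487 and 89246223 to 89246522 on chromosome 3, both inside the gene span given above. The same GC box is counted in each of them. Rpn2 had a window with 3 and a window with 0. The endoplasmic reticulum stress response element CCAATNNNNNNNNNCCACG, which contains a CCAAT box, was in 0 of the member windows and in 0.119% of all windows. The unfolded protein response element TGACGTGG was in 0 member windows and 0.676% of all, and TGATGCAA, read by ATF4 with a partner, in 0 and 0.895%. No factor's binding was measured. Shown as examples are Rpn2 and Magt1, tested subunits with a higher and a near-zero log2 fold change, each cut before the first annotated untranslated region, with CCAAT boxes of either strand in capitals. Rpn2 is read from chr2:157278848-157279058 on the plus strand and Magt1 from chrX:106011907-106012052 on the minus strand.
Rpn2: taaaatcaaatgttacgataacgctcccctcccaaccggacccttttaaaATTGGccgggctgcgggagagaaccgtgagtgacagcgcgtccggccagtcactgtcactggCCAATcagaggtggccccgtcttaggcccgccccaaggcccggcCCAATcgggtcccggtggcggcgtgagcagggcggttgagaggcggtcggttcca
Magt1: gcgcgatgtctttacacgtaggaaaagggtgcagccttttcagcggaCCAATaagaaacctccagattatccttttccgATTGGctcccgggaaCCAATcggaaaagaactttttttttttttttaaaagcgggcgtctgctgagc
Each stretch holds 3 CCAAT boxes. The full Magt1 window held 4, as the cut leaves out the box nearest the start, and the full window of the Rpn2 stretch held 3.

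Other genes of N-glycosylation were followed in 7 lists of 104 genes, of which 50 passed the filter. By edgeR 0 of the 50 were higher and 0 lower at the adjusted threshold, where 0.0765% of all tested genes were called. At an unadjusted p under 0.05 by edgeR there were 4 higher and 3 lower, where 8.95% of all tested genes passed. DESeq2 and limma-voom also called 0 of the 50. The median log2 fold change of the 50 was 0.063, against the -0.0082 of all tested genes. Of the 50 values 30 lay above 0 and 20 below, where 48.5% of all tested genes lay above 0.

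Of the further transferase subunits and partners, the 3 tested genes had a median of 0.046. Tmem258, which belongs to the catalytic core region, measured 306 ± 34.6 CPM in MSNBA and 298 ± 104 CPM in controls (log2 fold change 0.05, SE 0.18, adjusted p = 0.964 by edgeR). Ost4, a very small subunit, measured 210 ± 74.5 CPM in MSNBA and 204 ± 64.6 CPM in controls (log2 fold change -0.07, SE 0.22). Mlec encodes malectin, a lectin that associates with ribophorin I, and measured 231 ± 45.1 CPM in MSNBA and 214 ± 25.6 CPM in controls (log2 fold change 0.11, SE 0.18). The control range of Tmem258 enclosed its MSNBA range, at 276 to 366 CPM in MSNBA and 217 to 433 CPM in controls.

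Genes that build the dolichol-linked donor were mostly too low for the test, with 2 of 23 tested. Dpm3, which anchors the dolichol-phosphate-mannose synthase, had a lowest, median and highest value of 464, 562 and 701 CPM in MSNBA, against 563, 631 and 1042 CPM in controls. The groups overlapped, with -0.36 as log2 fold change (SE 0.14, edgeR adjusted p = 0.401). Dpm2, a regulatory subunit of the same synthase, measured 246 ± 81.9 CPM in MSNBA and 199 ± 33.1 CPM in controls (log2 fold change 0.22, SE 0.20). Dpagt1, which adds the first sugar to dolichol phosphate, had 22 counts in MSNBA and 10 in controls and was not tested. The summed list measured 1327 to 1586 CPM in MSNBA and 1443 to 1985 CPM in controls.

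Sugar nucleotide supply had 2 of 10 genes tested, with a median log2 fold change of -0.22. Pmm1, a phosphomannomutase, measured 200 ± 55.0 CPM in MSNBA and 253 ± 71.4 CPM in controls (log2 fold change -0.30, SE 0.20), and Gmppa, a regulatory subunit of GDP-mannose synthesis, measured 184 ± 51.2 and 197 ± 100 CPM in the same order. Gfpt1, which draws on fructose 6-phosphate for the hexosamine pathway, had 59 counts in MSNBA and 34 in controls and was not tested. Its levels overlapped, at 29.0 to 67.8 CPM in MSNBA and 21.7 to 84.6 CPM in controls.

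The translocon, which hands nascent chains to the STT3A form, had 21 of 25 genes tested, with 0 called and a median of 0.071. Of the 21 values 14 lay above 0, where 48.5% of all tested genes did. Sec61a1, the channel protein of the translocon, measured 1003 ± 131 CPM in MSNBA and 1015 ± 239 CPM in controls (log2 fold change -0.0012, SE 0.13). Sec61g, a small subunit of the channel, had a log2 fold change of 0.23 (SE 0.14). Of the translocon-associated protein genes, Ssr2 had -0.02 (SE 0.12) and Ssr4 0.31 (SE 0.17, adjusted p = 0.589 by edgeR). At an unadjusted p under 0.05 by edgeR, a level that 8.95% of all tested genes passed, the list held 2 genes. Named after their values were seen, they were Sec61b, a channel subunit, and Spcs1, a subunit of signal peptidase. Sec61b had a lowest, median and highest value of 413, 443 and 529 CPM in MSNBA, against 218, 355 and 433 CPM in controls, so that the groups overlapped (log2 fold change 0.43, SE 0.16, adjusted p = 0.373 by edgeR). Spcs1 measured 392 ± 21.9 CPM in MSNBA and 283 ± 64.5 CPM in controls (SD, n = 6 each; log2 fold change 0.41, SE 0.16, edgeR adjusted p = 0.389). Ssr4 ran from 402 to 664 CPM in MSNBA and from 172 to 513 CPM in controls.

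Glycan trimming and lectin chaperone genes had 11 of 18 tested, with 0 called and a median of 0.20. Canx (calnexin) measured 437 ± 72.7 CPM in MSNBA and 358 ± 75.0 CPM in controls (log2 fold change 0.24, SE 0.16). Calr, whose product calreticulin binds the same glycans, measured 2322 ± 257 CPM in MSNBA and 2686 ± 441 CPM in controls (log2 fold change -0.22, SE 0.10, adjusted p = 0.538 by edgeR). Os9, a lectin of the degradation pathway, had 0.38 as log2 fold change (SE 0.18, edgeR adjusted p = 0.519). Golgi maturation genes had 3 of 13 tested and a median of -0.056. Their values were 0.32 (SE 0.18) for B4galt1, a galactosyltransferase, -0.06 (SE 0.18) for the mannosidase Man1a2, and -0.61 (SE 0.23, adjusted p = 0.373) for the sialyltransferase St3gal4.

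Endoplasmic reticulum stress chaperones had 8 of 12 genes tested, with 0 called and a median of 0.10. Hspa5, the chaperone BiP, had 1081, 1348 and 1774 CPM in MSNBA and 889, 1038 and 1241 CPM in controls (lowest, median, highest). This gave 0.37 on the log2 scale (SE 0.12, edgeR adjusted p = 0.228). Hsp90b1 had -0.04 (SE 0.13) and Sdf2l1 -0.0092 (SE 0.18). The summed list ran from 2747 to 3519 CPM in MSNBA and from 2427 to 2846 CPM in controls, and its part in the subunit values was not tested.

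**Figure D3:**
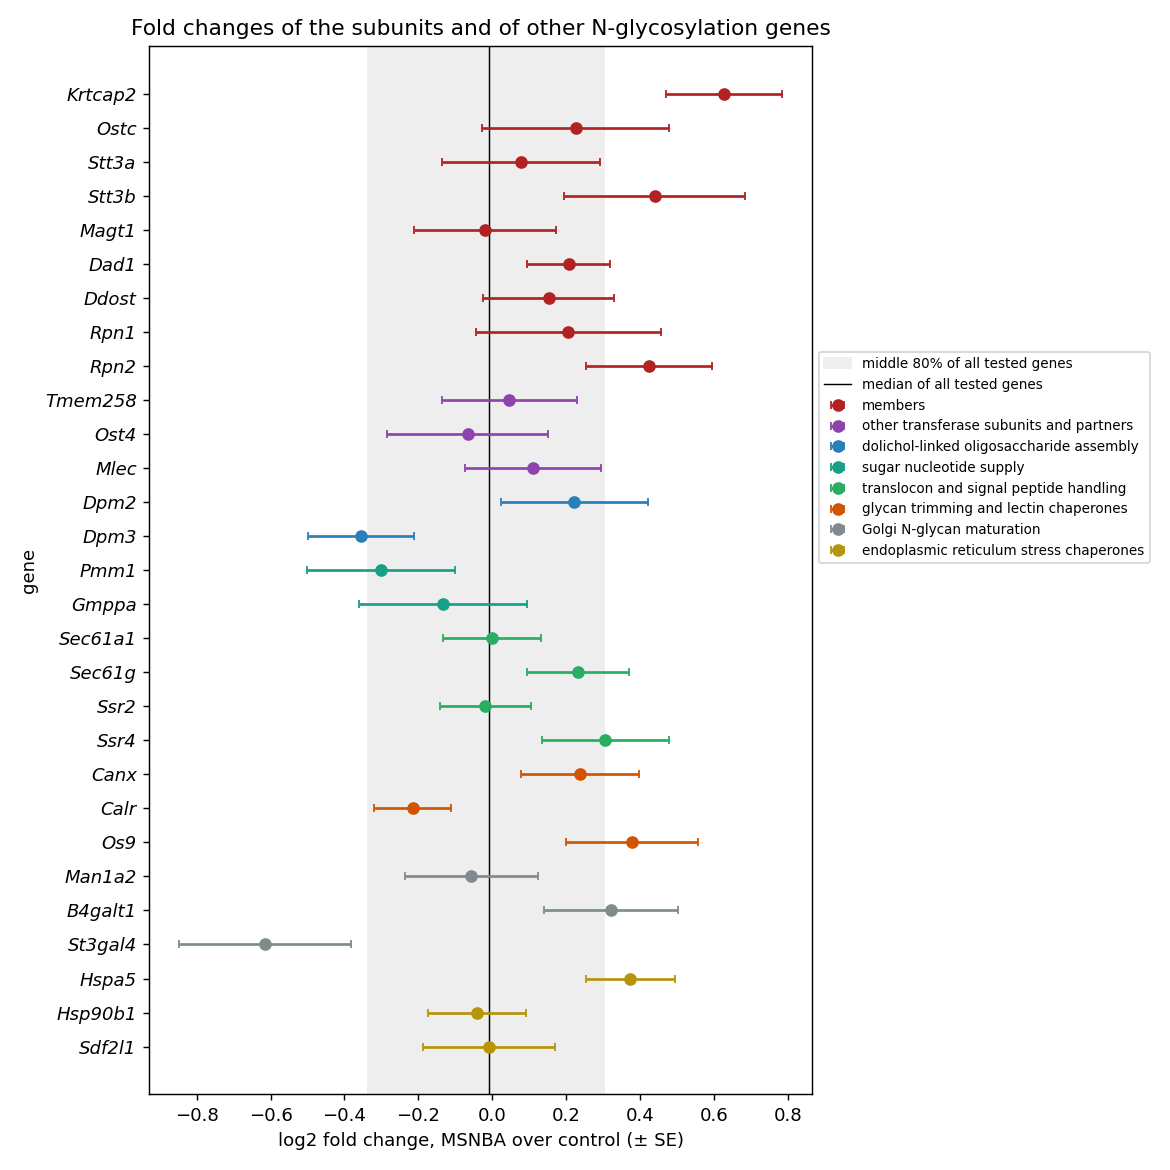
Log2 fold change of MSNBA over control (horizontal axis, bars ± SE, n = 6 libraries each) for the 9 tested subunits (red) and the named tested genes of the 7 pathway lists. The grey band holds the middle 80% of all 2614 tested genes, from -0.34 to 0.30, and the line is their median. Krtcap2 (0.63), Stt3b (0.44) and Rpn2 (0.42) stand above the band among the subunits.

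**Figure D4:**
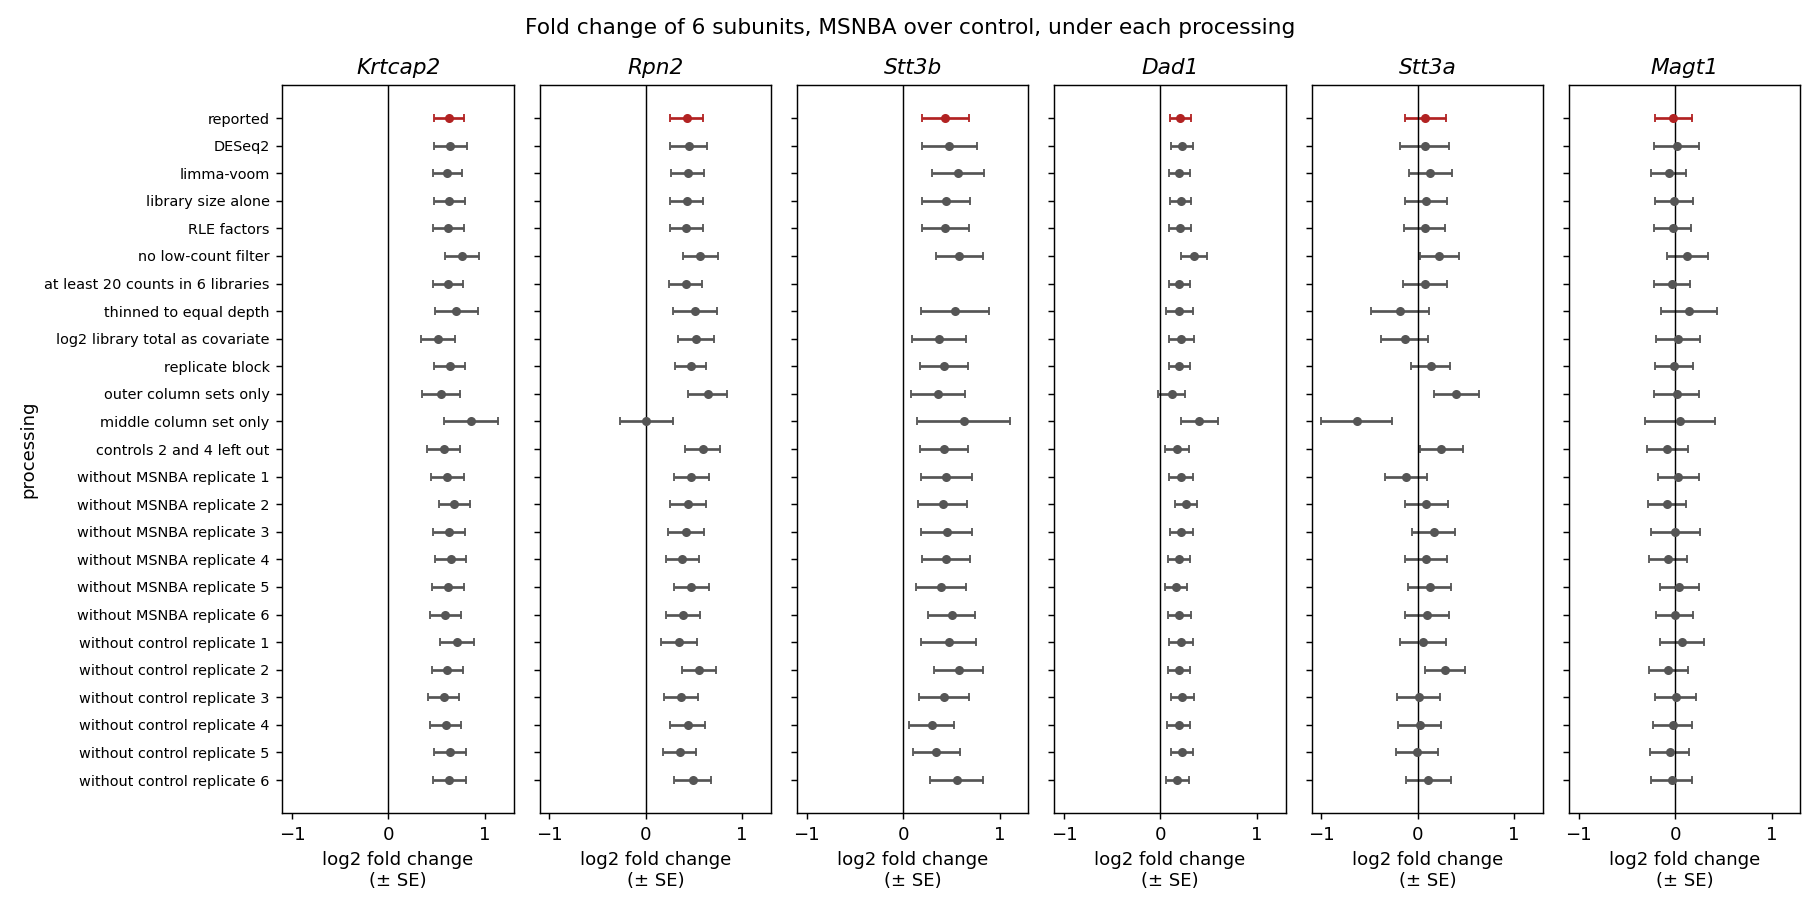
Log2 fold change of MSNBA over control (horizontal axes, bars ± SE) of 6 subunits under the reported processing (red) and each alternative (grey), with one line per processing. Krtcap2 stays between 0.52 and 0.85, while Stt3a runs from -0.63 to 0.40 and Rpn2 from 0.0047 to 0.64.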

How the data were processed

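The authors deposited one table of raw counts per gene symbol, a column per library. Per the submitters' processing notes, BWA 0.7.4.4 and mm10 were used; the file's own name mentions unique alignment, RefSeq and UMI, without further explanation. Which program counted, on which annotation and strand, is not given in the sources used here. Columns were matched to samples by library name and groups taken from the titles.

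With R 4.3.3, edgeR 4.0.16, limma 3.58.1 and DESeq2 1.42.0, genes were filtered by filterByExpr (2614 kept, 79.2% of counts), scaled by TMM and fitted by edgeR's robust quasi-likelihood test with an intercept and treatment, two-sided, with Benjamini-Hochberg adjustment over 2614 genes and a threshold of 0.05. SE is the log2 fold change over the square root of F. Log2 CPM used a prior count of 2. The fit was checked on simulated data. Members and lists were chosen with earlier results of these data known. Named genes are the 10 members, the 3 highest tested genes of each pathway list, 10 fixed genes, any past the threshold and the 5 most like Krtcap2. The alternatives tried were limma-voom, DESeq2, RLE factors, library size alone, no filter, 20 counts in 6 libraries, thinning to 59113 counts, depth as a covariate, a replicate block, column sets, controls 2 and 4 left out, and each library left out. Same-number libraries had residual correlations from -0.13 to 0.37 over 2612 genes, over 0.1 in 2 of 6 pairs, so that the block is an alternative. Every column was mapped.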

Additional observations from a re-analysis of the deposited data

Results flagged for a closer look

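A library far from the other 5 of its group was found in 6 of 76 groups examined, where a rate of 1 in 20 gives 3.8. The measure was the gap to the next library over the range of the group. That rate leaves out the unequal depth of the libraries and the genes that groups share, so that nothing is read from the difference. Stt3a measured 312 CPM in MSNBA 1, the deepest library, and the next MSNBA library had 224 CPM. The share of Tusc3 among Tusc3 and Magt1 was 11.8% in MSNBA 2, and the next lowest MSNBA library had 19.7%. Pmm1 measured 306 CPM in MSNBA 6, and the next MSNBA library had 207 CPM. Control 2 had 397 CPM of Gmppa, against at most 185 CPM in the other controls. Ssr4 was low in control 3, at 172 CPM, while the other controls began at 397 CPM. Control 5 had 303 CPM of Os9, against at most 223 CPM in the other controls.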

How the results depend on the processing

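Of 24 alternatives, the members' median on the log2 scale stayed within the spread between libraries in all 24 (0.16 to 0.35). The count of members past the threshold, a description since this contrast entered their choice, was 0 in 23 alternatives and 1 (Krtcap2) without the low-count filter, where the median of the 2614 genes also moved to 0.14. For the other pathway genes 0 passed in any of the 24. Their median of 0.063 was 0.21 without the filter and 0.19 in the outer column sets alone. The 2 genes called lower over the whole table became 0 with DESeq2, limma-voom, thinning, depth as a covariate and the outer column sets. The count was 1 with 20 counts in 6 libraries, 7 without the filter and 12 in the middle column set. The 0 genes called higher became 8 without the filter, 3 in the outer sets, 4 in the middle set and 4 without controls 2 and 4. With 1 library left out, lower calls ran from 0 to 5 and higher calls from 0 to 1. With the replicate number as a block, Krtcap2 had 0.64 (SE 0.16), 0 members passed and 3 genes were called in all. Krtcap2, Rpn1, Rpn2, Stt3b and Dad1 kept their sign in every alternative that gave a value, though many alternatives share most libraries. For Rpn1 and Rpn2 some of these values lay far within their SE of 0. Rpn1 had 0.0025 (SE 0.29) with depth as a covariate and 0.0041 (SE 0.25) without controls 2 and 4. Rpn2 had 0.0047 (SE 0.28) in the middle column set. The sign turned in 1 alternative for Ddost and for Ostc (-0.32 after thinning), 5 for Stt3a and 11 for Magt1. The cause was not tested. Ostc, Rpn1, Stt3b and Tusc3 are limited by depth, with 0 to 25 counts per control library.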
